A study of Rattus norvegicus with 24 samples.

Results

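The cell cycle and proliferation genes followed here in rat neurospheres (NSps) were chosen by 7 Ensembl identifiers, of which 4 were among the 16478 genes listed in the expression table. These were Ccnd1 (ENSRNOG00000020918), Pcna (ENSRNOG00000021264), Ccna2 (ENSRNOG00000015423) and Mki67 (ENSRNOG00000028137). The identifiers given for Top2a, Cdk1 and Ccnb1, 3 of the 7, were not analysed here. The symbols come with the identifiers in the choice of genes, since the tables list identifiers only.

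NSps are floating spheres that neural progenitor cells (NPCs) form in culture. The NPCs came from the brains of Sprague Dawley rat fetuses at embryonic day E15, and all groups grew in medium with epidermal and fibroblast growth factors, which keep progenitors dividing. The 24 samples fell into 6 groups of 4. Control NSps (C) received 0 Gy and no added compound, and CGy NSps received 1 Gy of X-rays on day 3 after seeding. N and NGy NSps were the corresponding 0 Gy and 1 Gy groups with Noggin at 5 µM, a secreted protein that binds and blocks bone morphogenetic proteins (BMPs). A and AGy NSps were those with ascorbic acid at 200 µM, an antioxidant. Both compounds were given before and after the exposure. The study places RNA extraction days after the exposure, and its results and methods do not give the same culture time. No earlier time was measured by RNA-seq. Transcripts were measured by polyA RNA-seq of whole NSps in TPM, the abundance of transcripts relative to all transcripts of the sample. The unit is corrected for transcript length, so that levels can be set side by side between genes.

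A dividing cell passes through growth (G1), DNA synthesis (S), a second gap (G2) and mitosis. Cyclin D1, the product of Ccnd1, partners Cdk4 and Cdk6, and growth factor signals raise it in G1. Pcna encodes the sliding clamp that holds DNA polymerases on the template in S phase, and it also serves in DNA repair. Cyclin A2, from Ccna2, acts with Cdk2 and Cdk1 through S phase and G2, and Ki-67, from Mki67, coats mitotic chromosomes and is present in cycling cells but not in resting ones. NPCs at this stage of brain development divide rapidly, and ionizing radiation is known to halt cycling cells at checkpoints.

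One control sample, MO2, stood apart. Its median gene had 1.32 TPM, against 2.57 to 3.20 TPM in the other 23 samples, and 8627 of its genes reached at least 1 TPM, against 9372 to 9720. MO2 was left out by the study and is left out of the tests here, so that C has 3 samples. No read counts were used, so the depth behind each value is unknown and the spread between samples is the only error given. Whether the samples of a group came from separate cultures is not stated, so p-values measure only the spread between these samples, which may be technical. The numbers in the titles of all 8 samples with ascorbic acid were below those of all 12 CGy, N and NGy samples, and 1 of the 4 C samples was below the highest of them. What these numbers stand for is not stated, and ascorbic acid and the numbering cannot be told apart. The labelled cell type could not be checked against its markers, since the reference list paired 0 identifiers with symbols.

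All 4 genes were expressed in every sample. Pcna had the highest level, with a mean of 301.9 TPM over the 23 samples, followed by Ccnd1 at 200.9 TPM, Mki67 at 87.1 TPM and Ccna2 at 22.7 TPM. Of the listed genes, 98.4% were lower than Pcna, 97.5% lower than Ccnd1, 93.5% lower than Mki67 and 76.0% lower than Ccna2. Between the lowest and the highest group mean, the 4 genes spanned 1.53-fold for Ccnd1, 1.45-fold for Pcna, 1.42-fold for Ccna2 and 1.40-fold for Mki67. Of 36 tests, for 4 genes in 9 comparisons between groups, 1 met both an adjusted p of at most 0.05 by limma and a change of at least 1.5-fold. Over all genes tested in these comparisons, 3.22% did. The gene was Ccnd1, which was lower in AGy than in CGy.

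**Figure D1:**
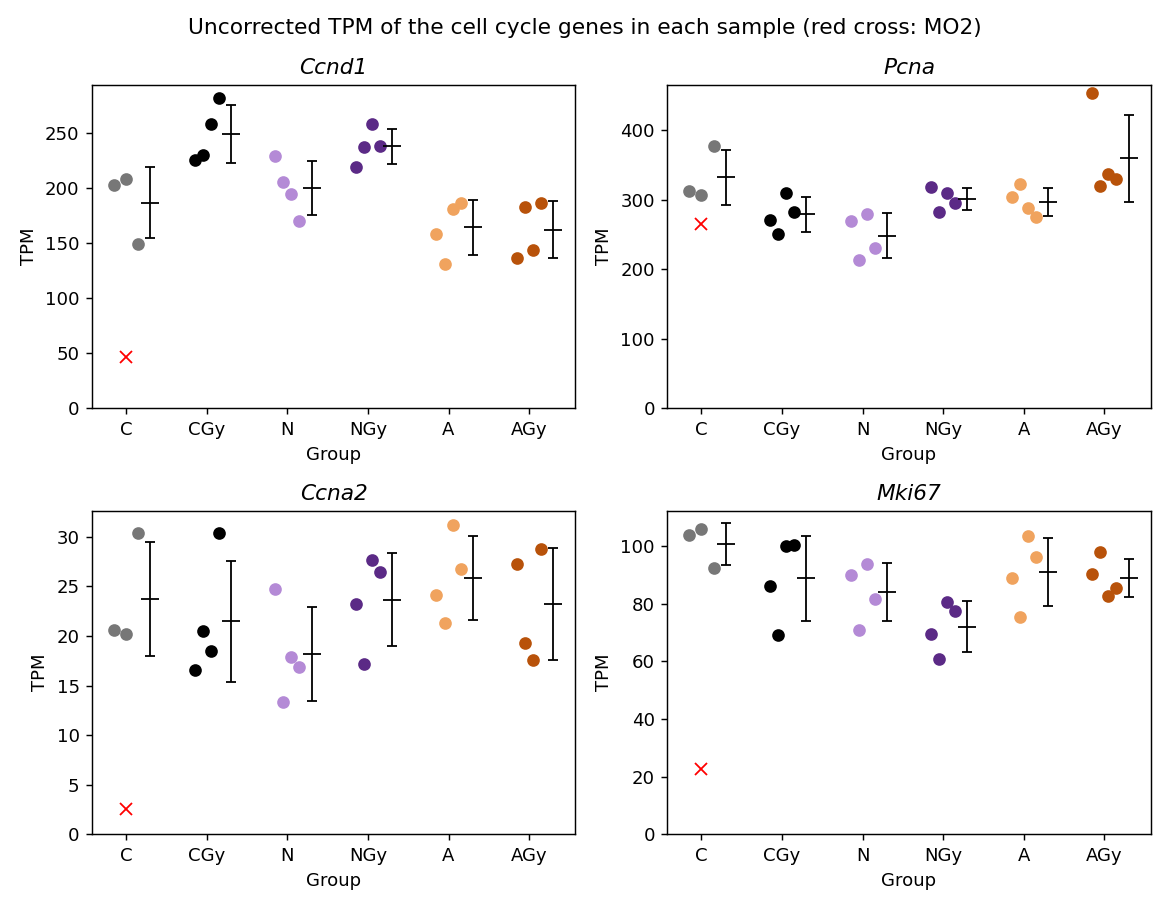
TPM of Ccnd1, Pcna, Ccna2 and Mki67 in each sample before batch correction, by group on the horizontal axis. Points are samples, bars are the mean ± SD of the 3 C samples or 4 samples of each other group, and the red cross is the control MO2. Ccnd1 lies highest in CGy and NGy and lowest in the groups with ascorbic acid, while MO2 lies below all other samples for Ccnd1, Ccna2 and Mki67.

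Cyclin D1 was the member that differed most between groups. Ccnd1 was at 203.0, 208.5 and 149.9 TPM in C and at 226.0, 230.1, 258.8 and 282.3 TPM in CGy. In the Noggin groups, it was at 229.5, 206.2, 194.8 and 170.1 TPM in N and at 219.6, 237.4, 258.2 and 238.6 TPM in NGy. With ascorbic acid, it was at 158.9, 131.3, 181.0 and 187.0 TPM in A and at 136.6, 182.7, 144.4 and 186.4 TPM in AGy. Every CGy sample thus lay above every C sample, 1 NGy sample lay within the range of N, and A and AGy covered nearly the same range. The group means ran from 162.5 ± 25.7 TPM in AGy (SD, n = 4) and 164.6 ± 25.2 TPM in A (SD, n = 4), through 187.1 ± 32.4 TPM in C (SD, n = 3) and 200.2 ± 24.7 TPM in N (SD, n = 4), to 238.4 ± 15.8 TPM in NGy (SD, n = 4) and 249.3 ± 26.4 TPM in CGy (SD, n = 4). Each neighbouring pair in this order overlapped.

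In irradiated NSps, Ccnd1 fell by 0.62 on the log2(TPM + 1) scale (SE 0.13, 95% interval -0.92 to -0.33) in AGy against CGy, a 1.54-fold difference with an adjusted p of 0.0225 by limma. All 4 AGy samples lay below all 4 CGy samples, as they did for 12.2% of the genes tested. Of the 9847 genes tested in this pair, 6.42% met the same thresholds, 3.03% as lower in AGy. The call was lost when MO15, MO16 or MO23 was left out, with adjusted p of 0.0619, 0.0665 and 0.0547, and when MO21 was left out, where the difference of -0.54 missed 1.5-fold. Without MO16 and without MO23, the differences of -0.56 and -0.57 missed 1.5-fold as well. Over the 8 samples left out in turn, the difference lay between -0.69 and -0.54.

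Ccnd1 was also higher in NGy than in AGy in all samples, by 0.56 (SE 0.12, 95% interval 0.29 to 0.83), with an adjusted p of 0.0155 by limma. This was a 1.47-fold difference, below the 1.5-fold threshold. Of the 9840 genes of this pair, 8.96% met both thresholds, 13.1% had all NGy samples above all AGy samples and 9.38% were higher in NGy at an adjusted p of at most 0.05. Between CGy and NGy, the difference of Ccnd1 was -0.06 (95% interval -0.27 to 0.14, NGy minus CGy), with an adjusted p of 0.786. Without radiation, N minus A was 0.29 (95% interval -0.02 to 0.59, adjusted p = 0.163) and 0.18 without MO10, A minus C was -0.18 (95% interval -0.58 to 0.22, adjusted p = 0.716) and N minus C was 0.10 (95% interval -0.25 to 0.46, adjusted p = 0.757).

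For the radiation comparisons, the level of Ccnd1 did not pass the test in any pretreatment. The difference was 0.42 (SE 0.15, 95% interval 0.08 to 0.77) in CGy against C, a 1.34-fold difference with an adjusted p of 0.331 by limma. In that pair 9.03% of the genes tested had all CGy samples above all C samples, and 0.0204% were called. Of the C samples, MO4 had the lowest Ccnd1, and without it the difference was 0.27, with an adjusted p of 0.539. NGy minus N was 0.26 (95% interval 0.03 to 0.48, adjusted p = 0.111), and AGy minus A was -0.02 (95% interval -0.36 to 0.32, adjusted p = 0.970). The difference of the radiation effect with and without ascorbic acid, tested as an interaction, was -0.44 (SE 0.22, 95% interval -0.91 to 0.03, adjusted p = 0.632), and -0.29 without MO4. The corresponding value for Noggin was -0.16 (95% interval -0.54 to 0.22, adjusted p = 0.632).

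**Figure D2:**
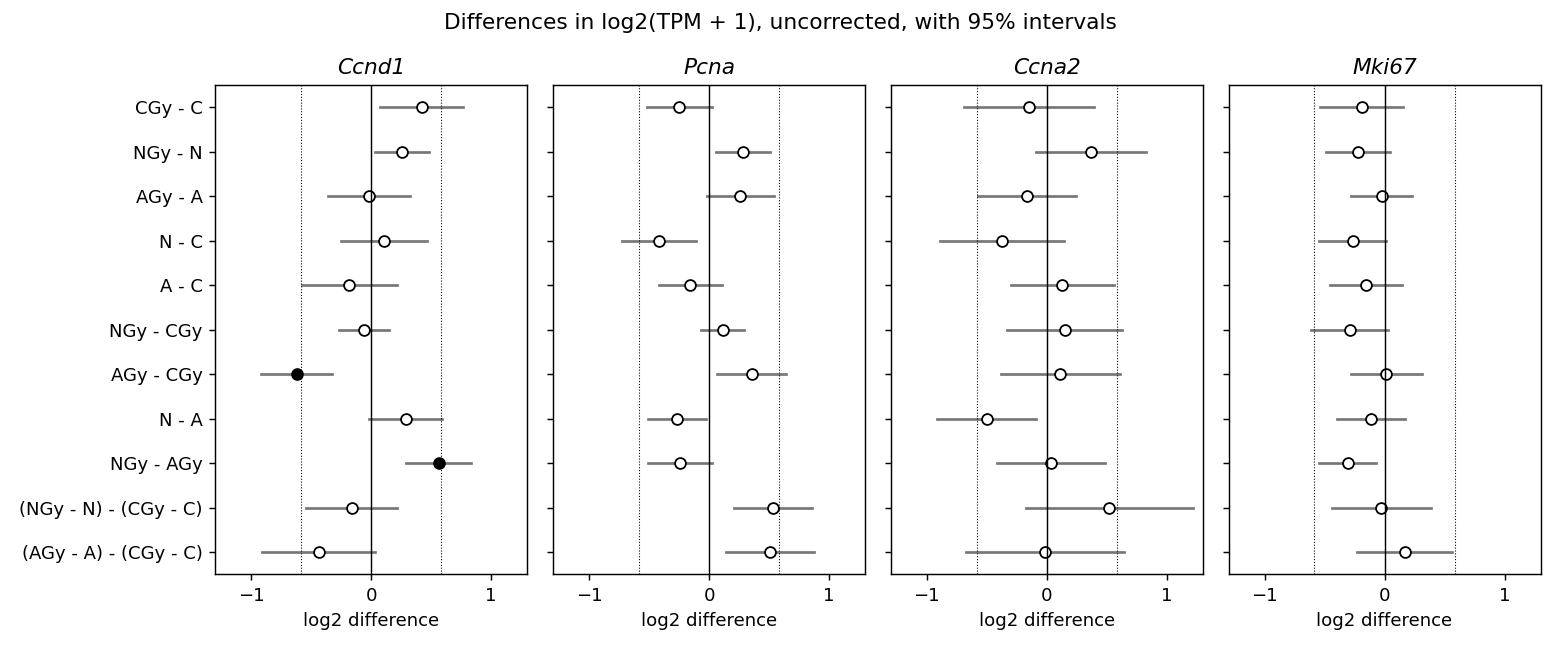
Differences in log2(TPM + 1) of the 4 genes in the 9 comparisons between groups and the 2 interactions, with 95% intervals from limma. Filled points have an adjusted p of at most 0.05, and dotted lines mark a 1.5-fold difference. Ccnd1 is filled in AGy against CGy, at -0.62, and in NGy against AGy, at 0.56, and all other points are open.

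Pcna, which serves both replication and repair, differed between groups with another order. Its level was 312.3, 307.2 and 376.9 TPM in C and 271.7, 251.2, 310.3 and 283.0 TPM in CGy. With Noggin, Pcna was at 270.0, 213.0, 280.3 and 230.6 TPM in N and at 318.2, 282.8, 310.2 and 294.9 TPM in NGy. With ascorbic acid, it was at 303.7, 322.2, 288.9 and 274.8 TPM in A and at 453.3, 320.1, 337.1 and 329.6 TPM in AGy. CGy and C overlapped through 1 CGy sample, all NGy samples lay above all N samples, and 1 AGy sample lay within the range of A. The AGy sample MO21, at 453.3 TPM, was the highest of all 23. Group means were 248.5 ± 31.9 TPM in N (SD, n = 4), 279.0 ± 24.6 TPM in CGy (SD, n = 4), 297.4 ± 20.3 TPM in A (SD, n = 4), 301.5 ± 15.8 TPM in NGy (SD, n = 4), 332.2 ± 38.9 TPM in C (SD, n = 3) and 360.0 ± 62.6 TPM in AGy (SD, n = 4). Neighbours in this order overlapped.

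Before batch correction and fitted pair by pair, none of the 9 comparisons of Pcna reached an adjusted p of 0.05 by limma. With all 6 groups in one fit, AGy against CGy did, at 0.0336. Of the 9 pairwise fits, 4 had an unadjusted p under 0.05. After 1 Gy, the difference was -0.25 without a compound (95% interval -0.52 to 0.02, adjusted p = 0.348), 0.29 with Noggin (95% interval 0.06 to 0.51, adjusted p = 0.0842) and 0.26 with ascorbic acid (95% interval -0.02 to 0.54, adjusted p = 0.418). Without MO4, the C sample with the highest Pcna, the first of these differences was -0.15, and without MO21 the third was 0.15. In NGy against N, 11.3% of the 9765 genes tested had all NGy samples above all N samples, and 2.91% were called. The interactions were 0.53 for Noggin (SE 0.15, 95% interval 0.21 to 0.86, adjusted p = 0.203) and 0.51 for ascorbic acid (SE 0.17, 95% interval 0.14 to 0.88, adjusted p = 0.632). An unadjusted p under 0.05 was reached by Pcna in both interactions, as it was by 16.5% of the genes tested for Noggin and by 7.51% for ascorbic acid. Both interactions share the C and CGy samples. Of the genes tested, 0.01% were called for Noggin and 0.00996% for ascorbic acid.

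Between pretreatments, Pcna was lower in all 4 N samples than in all 3 C samples, with a difference of -0.42 (95% interval -0.73 to -0.11, adjusted p = 0.346 by limma). In that pair 5.32% of the genes tested were separated in this direction and 0.0102% were called. AGy lay above CGy in all samples, by 0.36 (95% interval 0.07 to 0.64, adjusted p = 0.0946), as did 11.4% of the genes tested there. Without MO21 that difference was 0.24, with an adjusted p of 0.128. NGy lay below AGy in all samples, with a difference of -0.24 (95% interval -0.51 to 0.03, adjusted p = 0.179), as did 14.1% of the genes tested, and without MO21 the difference was -0.13. N minus A was -0.26 (95% interval -0.51 to -0.02, adjusted p = 0.107), in a pair where 10.1% of the genes were called.

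Ccna2, the S phase and G2 cyclin, had the lowest level of the 4 genes and the widest spread within groups on the log2 scale. It was at 20.6, 20.2 and 30.4 TPM in C and at 16.6, 20.5, 18.5 and 30.4 TPM in CGy. With Noggin, Ccna2 was at 24.7, 13.4, 17.9 and 16.9 TPM in N and at 23.3, 17.2, 27.7 and 26.5 TPM in NGy. With ascorbic acid, it was at 24.1, 21.3, 31.2 and 26.8 TPM in A and at 27.3, 19.3, 17.6 and 28.7 TPM in AGy. In no comparison did the groups separate. The means were 18.2 ± 4.75 TPM in N (SD, n = 4), 21.5 ± 6.13 TPM in CGy (SD, n = 4), 23.2 ± 5.61 TPM in AGy (SD, n = 4), 23.7 ± 4.69 TPM in NGy (SD, n = 4), 23.7 ± 5.76 TPM in C (SD, n = 3) and 25.9 ± 4.20 TPM in A (SD, n = 4).

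The largest difference of Ccna2 was between the unirradiated pretreated groups, at -0.50 (SE 0.18, 95% interval -0.91 to -0.09) for N minus A, with an adjusted p of 0.0813 by limma. N sample MO5 had the highest Ccna2 of its group, and without it the difference was -0.65, with an adjusted p of 0.0236. Over the 8 samples left out in turn, the difference lay between -0.65 and -0.37, with adjusted p of 0.0236 to 0.17. Leaving out MO5 was the only omission that took the adjusted p under 0.05. After 1 Gy, the difference was -0.15 in CGy against C (95% interval -0.69 to 0.39, adjusted p = 0.739), 0.37 in NGy against N (95% interval -0.09 to 0.83, adjusted p = 0.233) and -0.17 in AGy against A (95% interval -0.58 to 0.25, adjusted p = 0.731). The intervals in CGy against C and in NGy against N include a 1.5-fold difference in one direction. Without MO6, the N sample with the lowest Ccna2, NGy minus N was 0.24. The interactions were 0.52 for Noggin (95% interval -0.18 to 1.22, adjusted p = 0.407) and -0.02 for ascorbic acid (95% interval -0.68 to 0.64, adjusted p = 0.990), and without MO4 the first of them was 0.34.

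Mki67, the marker of cycling cells, was highest on average in C and lowest in NGy. It was at 103.8, 106.0 and 92.3 TPM in C and at 86.1, 69.1, 99.98 and 100.4 TPM in CGy. With Noggin, Mki67 was at 89.9, 70.9, 93.9 and 81.5 TPM in N and at 69.5, 60.9, 80.5 and 77.5 TPM in NGy. With ascorbic acid, it was at 88.8, 75.5, 103.6 and 96.1 TPM in A and at 90.4, 97.8, 82.6 and 85.4 TPM in AGy. Irradiated and unirradiated samples overlapped with each pretreatment, while all NGy samples lay below all AGy samples. The means were 72.1 ± 8.80 TPM in NGy (SD, n = 4), 84.0 ± 10.2 TPM in N (SD, n = 4), 88.9 ± 14.8 TPM in CGy (SD, n = 4), 89.0 ± 6.68 TPM in AGy (SD, n = 4), 91.0 ± 11.96 TPM in A (SD, n = 4) and 100.7 ± 7.35 TPM in C (SD, n = 3). Neighbours in the order of Mki67 overlapped, as did those of Ccna2.

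After 1 Gy, Mki67 differed by -0.19 in CGy against C (95% interval -0.54 to 0.16, adjusted p = 0.515 by limma), by -0.22 in NGy against N (95% interval -0.49 to 0.05, adjusted p = 0.229) and by -0.02 in AGy against A (95% interval -0.28 to 0.23, adjusted p = 0.942). All 3 intervals leave out a change of 1.5-fold in either direction, which is 0.585 on this scale. In CGy against C the lower end of the interval came near it. Without MO14B, the CGy sample with the lowest Mki67, CGy minus C was -0.077, and without MO18, NGy minus N was -0.14. Other omissions took these differences as far as -0.25 and -0.30, and no intervals are given for them. NGy minus AGy was -0.31 (SE 0.10, 95% interval -0.54 to -0.07), with an adjusted p of 0.0701, in a pair where 14.1% of the genes tested had all NGy samples lower. That adjusted p was 0.0368 with quantile normalization and 0.0447 with a variance that followed the expression level. NGy minus CGy was -0.29 (95% interval -0.61 to 0.03, adjusted p = 0.328) and N minus C was -0.26 (95% interval -0.54 to 0.02, adjusted p = 0.422). AGy minus CGy was 0.02 (95% interval -0.28 to 0.31, adjusted p = 0.950), so that Ccnd1 and Mki67 had different values in that pair, and the difference between the 2 genes was not tested. In whole NSps, fewer cycling cells and less RNA of a gene per cell cannot be told apart, for Mki67 as for the other 3 genes.

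Counted by comparison, the 4 genes gave 1 called change in AGy against CGy and 0 in each of the other 8. At an unadjusted p under 0.05, Ccnd1 passed in CGy against C, where 14.6% of all genes tested did. Ccnd1 and Pcna passed in NGy against N, where 33.2% of genes did, and Pcna passed in N against C, where 12.1% did. In AGy against CGy, Ccnd1 and Pcna passed beside 32.2% of genes. Ccna2 and Pcna passed in N against A beside 36.5%, and Ccnd1 and Mki67 passed in NGy against AGy beside 35.2%. In AGy against A, A against C and NGy against CGy, 0 of the 4 genes passed at an unadjusted p under 0.05, where 12.7%, 12.1% and 17.8% of genes did. The shares called by both thresholds were 0% in AGy against A, 0.0203% in A against C and 0.392% in NGy against CGy. The comparisons share samples, so their values are not independent of one another.

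The study also deposited a batch-corrected table, with the same group means of log2(TPM + 1). In TPM, the SD of a group was smaller after the correction in 20 of the 24 groups of the 4 genes and larger in 4, such as Ccnd1 in N, where it went from 24.7 to 31.6 TPM. When the 2 main axes along which samples of the same group differed were subtracted from log2(TPM + 1), the corrected table was recovered with no difference above 7e-09. Such a correction draws on the group of each sample, so p-values from the corrected table tend to be too small. By how much was not tested, and not all of them fell. For Ccnd1 in NGy against N, the unadjusted p by limma went from 0.0300 to 0.0414. The correction removed 70.7% of the squares within groups of Pcna, 53.0% of those of Mki67, 47.9% of those of Ccnd1 and 28.9% of those of Ccna2, against a median of 38.8% over genes. After it, 11 of the 36 tests had an adjusted p of at most 0.05 by limma, 6 for Pcna, 3 for Ccnd1, 2 for Mki67 and 0 for Ccna2, in a table where 23.7% of all genes tested over the 9 comparisons passed. Before it, 2 of the 36 did, beside 7.75% of all genes. Groups did not overlap in 15 of the 36 tests after the correction and in 8 before it, against 31.5% and 18% of all genes tested.

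Of these 36 tests, 1 met the 1.5-fold threshold in the corrected table too, again Ccnd1 in AGy against CGy, with an adjusted p of 0.000732, where 9.07% of genes were called. Over the 9 comparisons, 5.65% of genes were called in that table. In CGy against C, corrected values gave an adjusted p of 0.00259 for Ccnd1, 0.0142 for Pcna and 0.0855 for Mki67. In that pair 20% of the genes tested were higher and 10.4% lower at an adjusted p of at most 0.05 after the correction, against 0.0204% and 0% before it. The interaction of Pcna had an adjusted p of 0.00166 for Noggin and 0.00384 for ascorbic acid, and that of Ccnd1 for ascorbic acid was 0.0438. In the corrected table, 24.1% of all genes tested passed for the Noggin interaction and 11.2% for that of ascorbic acid.

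**Figure D3:**
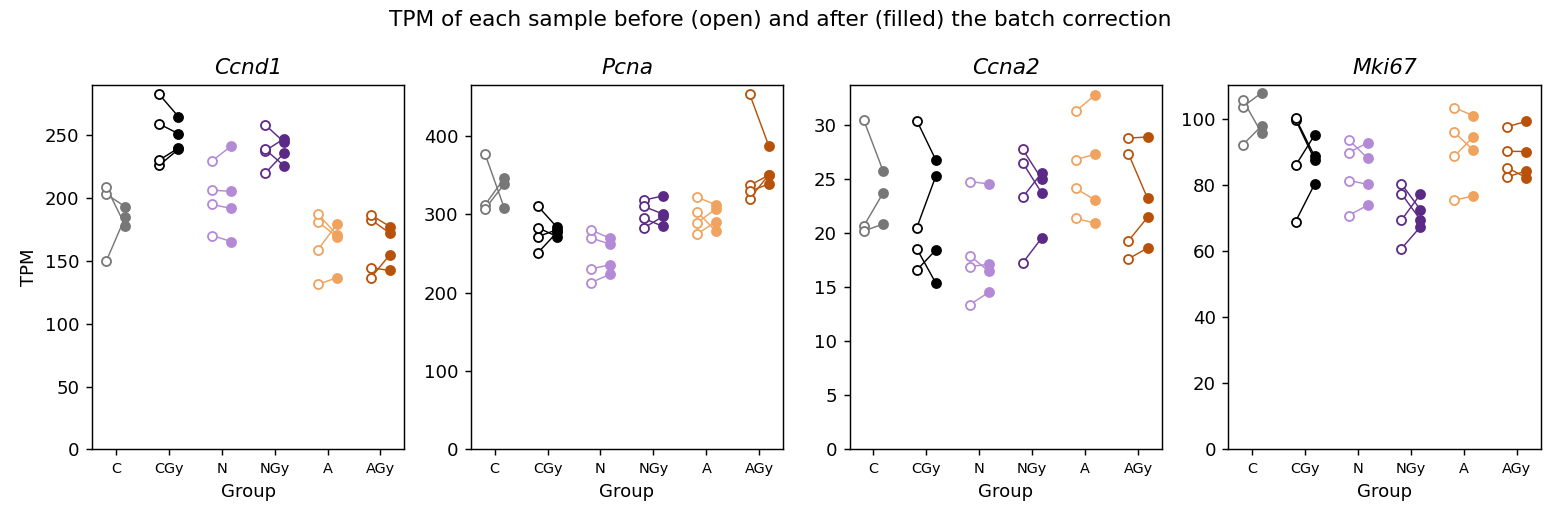
Levels of the 4 genes before (open points) and after (filled points) the deposited batch correction, by group, for the 23 samples without MO2. Points draw together after the correction in 20 of 24 groups and spread further apart in 4, which are Ccnd1 in N, Ccna2 in A, Mki67 in AGy and Pcna in NGy. Summed over groups, it removed 70.7% of the squares within groups for Pcna and 28.9% for Ccna2.

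Within groups, some samples were the lowest or highest for several of the genes, in the same or in opposite directions. How often this arises by chance in groups of 3 or 4 samples was not tested. NGy sample MO18 had the lowest Mki67, Ccna2 and Pcna of its group, and N sample MO6 had the lowest of the same 3 genes in N. A sample MO10 had the lowest Mki67, Ccna2 and Ccnd1 of its group and the highest Pcna, and C sample MO4 had the highest Ccna2 and Pcna and the lowest Mki67 and Ccnd1. The SD within groups on the log2(TPM + 1) scale was 0.156 for Pcna, 0.179 for Mki67, 0.195 for Ccnd1 and 0.318 for Ccna2. Of 10134 genes averaging 1 TPM or more in some group, 80.6% had a smaller SD than Ccna2, and the median was 0.179. Differences between groups held 68.3% of the squares of Ccnd1, 61.5% of those of Pcna, 45.6% of those of Mki67 and 25.4% of those of Ccna2, against a median of 46.6% over these genes.

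The genes most like Mki67 across the 23 samples were ENSRNOG00000038140, with a Pearson r of 0.945, and ENSRNOG00000012318, with an r of 0.920. After the group means were taken out, r was 0.941 and 0.939. Both had their lowest mean in NGy, at 40.7 TPM for ENSRNOG00000038140 and 37.7 TPM for ENSRNOG00000012318, as Mki67 did. Next to Ccnd1, the most alike were ENSRNOG00000006472 and ENSRNOG00000022929, both with an r of 0.911, and with 0.891 and 0.774 after the group means were taken out. Both had their highest means in CGy and NGy, as Ccnd1 did. ENSRNOG00000006472 had its lowest mean in C, at 12.4 TPM, against 12.9 TPM in A and 12.7 TPM in AGy, while ENSRNOG00000022929 had its lowest in A and AGy, at 20.8 and 22.1 TPM, against 24.4 TPM in C and 27.1 TPM in N. The genes were picked by their r over these samples, group differences included, so a like order of group means follows in part from the choice. These values describe the 23 samples, which share groups and library composition, and no symbol was paired with these identifiers.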

How the data were processed

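RNA-seq was performed by the authors on polyA RNA of 24 rat NSp samples. Per the labels, STAR 2.6.1 and kallisto were used, and the methods name the rat build Rn7 and, for batch correction, NOISeq. The deposited TPM table held 24 samples. A second table held deposited scores equal to 0.5 × (batch-corrected TPM + 1) for 23 samples. Columns were placed in groups by reading the study's figures and methods, which show its sample names with their groups, and 0 columns had no group. The titles of the labels use other numbers than the columns, so columns were not matched to single label entries.

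TPM were compared as log2(TPM + 1) with limma 3.58.1 in R 4.3.3, with MO2 left out, pair by pair, keeping genes that averaged 1 TPM or more in one of the groups. Fold changes are on this scale and understate those of low genes. P-values were Benjamini-Hochberg adjusted over all genes tested. A gene was called at an adjusted p of at most 0.05 and a change of at least 1.5-fold. The 2 interactions needed the adjusted p only, with the same filter over their 4 groups. The fits were tested on simulated data with planted shifts larger than any difference reported here. That test does not show how well differences of the reported size are detected.

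The named genes were all listed members and the 2 genes most correlated with Mki67 and with Ccnd1. The members, the lists and the choice of the uncorrected table as the main one were made with earlier results of these data known. Pathway and marker lists were not used, because the reference list paired 0 identifiers with symbols and those of the members came with the rule that chose them, and no coordinates are given. Alternatives were the batch-corrected table, MO2 kept, a pseudocount of 0.1, other filters, scalings and fits, and each sample left out.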

Additional observations from a re-analysis of the deposited data

Results flagged for a closer look

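Among the 4 genes and 6 groups, 24 sets of samples were tested for a sample far from the others of its group by Dixon's ratio, which chance exceeds in about 1 of 20 sets. Of the 24 sets, 2 were flagged, and MO2, in the first of them, had already been left out as an outlier. In C with MO2 counted as the fourth sample, Mki67 in MO2 was 22.7 TPM, against 92.3 to 106.0 TPM in the other 3. Pcna in the AGy sample MO21 was 453.3 TPM, against 320.1 to 337.1 TPM in the other 3 AGy samples. Without MO21, the difference of Pcna was 0.24 in AGy against CGy and 0.15 in AGy against A, with adjusted p of 0.128 and 0.50 by limma.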

How the results depend on the processing

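The depth of each sample is unknown, so the values carry no counting error. No paired analysis was possible because the columns carry no replicate numbers and could not be matched to single label entries. Apart from leaving out samples, 315 changes of single genes under the alternatives kept their direction and their side of the threshold, 3 newly passed and 10 reversed. With MO2 kept among the controls, CGy minus C became 0.55 for Ccna2 and 0.33 for Mki67, N minus C became 0.33 for Ccna2 and 0.26 for Mki67, A minus C became 0.31 for Ccnd1 and 0.37 for Mki67, the Noggin interaction of Ccna2 became -0.18 and the ascorbic acid interaction of Mki67 became -0.36. Keeping MO2 also moved values in the same direction, with CGy minus C of Ccnd1 going from 0.42 to 0.91, N minus C of Ccnd1 from 0.10 to 0.60, A minus C of Ccna2 from 0.13 to 0.83, the Noggin interactions of Ccnd1 and Mki67 to -0.66 and -0.55, and the ascorbic acid interactions of Ccnd1 and Ccna2 to -0.93 and -0.71, and 0 members were called. Scaling each sample to the same total gave -0.018 for Mki67 in AGy against CGy, and quantile normalization gave 0.066 for the ascorbic acid interaction of Ccna2. On an adjusted p alone, 1 gene was called in NGy against AGy, since the fold threshold was dropped. The batch-corrected table called 1 gene in the Noggin interaction (Pcna, 0.53) and 2 in that of ascorbic acid (Ccnd1, -0.44, and Pcna, 0.51), with its smaller spread within groups. In CGy against C, that table called 657 of all genes and the uncorrected one 2. Ccnd1 in AGy against CGy lay between -0.66 and -0.62 over these alternatives, with adjusted p of 0.000732 to 0.0338 by limma.

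With each sample left out in turn, 359 changes kept their direction and side, 29 reversed, 4 newly passed and 4 were lost. The number of called members ranged from 0 to 1 in AGy against CGy, in N against A and in NGy against AGy. In NGy against AGy, Ccnd1 was called without MO17, MO22 or MO24, and its difference ranged from 0.48 to 0.63. Differences that reversed ranged from -0.32 to 0.034 for Ccna2 in CGy against C, from -0.083 to 0.17 for Ccna2 in NGy against AGy, from -0.20 to 0.16 for the ascorbic acid interaction of Ccna2, from -0.12 to 0.060 for Ccnd1 in AGy against A, from -0.048 to 0.19 for Ccnd1 in N against C, from -0.11 to 0.00093 for Ccnd1 in NGy against CGy, from -0.11 to 0.040 for Mki67 in AGy against A, from -0.099 to 0.079 for Mki67 in AGy against CGy and from -0.14 to 0.050 for the Noggin interaction of Mki67. The cause of these reversals was not tested.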

Other observations

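The control sample MO2, which was left out of the comparisons except where it was kept as an alternative, had 46.6 TPM of Ccnd1, 265.7 TPM of Pcna, 2.50 TPM of Ccna2 and 22.7 TPM of Mki67. Pcna in MO2 lay within the range of the other 23 samples, of 213.0 to 453.3 TPM, while Ccnd1, Ccna2 and Mki67 lay below the lowest of them, which were 131.3, 13.4 and 60.9 TPM.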
